A study of Mus musculus with 6 samples.

Results

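Rsrp1, Clk1, Clk2, Clk3, Clk4, Tra2a, Tra2b and Luc7l3, 8 genes of 58354 with a transcript model in the deposited files, encode proteins that set or carry out the choice of splice sites. They were picked by name, with their totals and their shares of coding and intron-retaining transcripts in these libraries known, so their differences between the groups are a description. The limma model was fitted over all genes, and the members' values from it are printed with no p of their own. All 8 were among the 15509 genes that averaged 1 TPM or more (a relative level per transcript length). GL261, a line grown from a mouse glioma, was given 1 uM sodium chloride (libraries chloride 1, 2 and 3) or 1 uM sodium propionate, the salt of a short-chain fatty acid (libraries propionate 1, 4 and 5), and lysed for RNA at 4 h, and no other treatment or genetic change is named for either group. All come from 1 cell line, and the labels do not say whether the libraries are separate cultures, so the spread between them may be technical. The unit of dose is as labelled and was not checked.

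CLK kinases phosphorylate SR proteins, the arginine- and serine-rich factors that mark exons for the spliceosome, and that phosphorylation releases SR proteins from nuclear speckles. The transcripts of these regulators are themselves unevenly spliced: CLK transcripts wait in the nucleus with introns around exon 4 still in place, and Tra2 transcripts can take up a poison exon, whose in-frame stop codon sends them to nonsense-mediated decay. Tra2a and Tra2b bind GAA-rich exonic enhancers, Luc7l3 is related to a yeast subunit of the U1 snRNP that meets the 5′ splice site, and Rsrp1 is an arginine- and serine-rich protein named for that composition. Rsrp1 lies at chr4:134923592-134927671, Clk1 at chr1:58410189-58424066, Clk2 at chr3:89164795-89176921 and Clk3 at chr9:57750624-57765860 of GRCm38. Clk4 lies at chr11:51261730-51281766, Tra2a at chr6:49243924-49264033, Tra2b at chr16:22244549-22266005 and Luc7l3 at chr11:94287890-94321988 of the same build.

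The coding models with the most exons of the 4 CLK genes each had 13 exons, and exons 5 to 12, 8 in all, had the same length in all 4 genes. Exon 4 had 91 bases in Clk1 and Clk4, 85 in Clk2 and 97 in Clk3. Its length left a remainder of 1 when divided by 3 in 4 of 4, so a transcript without it is read in another frame from there on. It is printed whole because several of the values below turn on it, with capitals at the 6 bases of 91 where Clk1 and Clk4 differ (93.4% identical), at chr1:58420121-58420211 on the minus strand and chr11:51273078-51273168 on the plus strand.
Clk1 exon 4: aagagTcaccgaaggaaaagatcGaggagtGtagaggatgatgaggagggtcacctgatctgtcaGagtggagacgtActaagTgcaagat
Clk4 exon 4: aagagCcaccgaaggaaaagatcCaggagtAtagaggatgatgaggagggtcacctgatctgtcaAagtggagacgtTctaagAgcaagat
Clk2 exon 4: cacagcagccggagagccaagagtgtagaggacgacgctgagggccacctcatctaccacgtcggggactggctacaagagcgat
Clk3 exon 4: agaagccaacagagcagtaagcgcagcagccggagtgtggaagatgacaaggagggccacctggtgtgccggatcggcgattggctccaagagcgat
In Clk1-210, a reference model without exon 4, the next exon meets a stop codon (capitals) after 21 bases, at chr1:58419713-58419733 on the minus strand.
Clk1 exon 5 read after skipping: atgaaattgttgatacttTAG

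The poison exons of the Tra2 genes are printed from their first base to the stop codon (capitals), 144 of 306 bases in Tra2a-202 at chr6:49252965-49253108 and 81 of 276 bases in Tra2b-206 at chr16:22259181-22259261, both on the minus strand.
Tra2a extra exon: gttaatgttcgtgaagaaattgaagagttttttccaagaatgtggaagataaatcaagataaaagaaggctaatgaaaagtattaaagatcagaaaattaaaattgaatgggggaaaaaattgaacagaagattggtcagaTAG
Tra2b extra exon: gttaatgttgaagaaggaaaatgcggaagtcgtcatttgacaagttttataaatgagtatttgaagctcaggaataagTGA

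The introns after exon 4 begin as follows, with 3 bases of exon followed by the intron, whose first 2 bases are in capitals. The windows are chr1:58420104-58420123 and chr9:57758610-57758629 on the minus strand, and chr11:51273166-51273185 and chr3:89169700-89169719 on the plus strand, of GRCm38.
Clk1 intron 4 5' end: gatGTatagaatatttttca
Clk4 intron 4 5' end: gatGTatagaatatttttca
Clk2 intron 4 5' end: gatGTacaagccaaatcgta
Clk3 intron 4 5' end: gatGTacagccacctttcgt
Clk1 and Clk4 were identical over all 17 intron bases shown. Against the 9 letters CAGGTAAGT of the 5′ splice site consensus, read on the sense strand across the exon end, each of the 4 sites matched at 4 positions. Of 8615 introns that a reference model typed as retained holds whole, 5.57% had 4 or fewer matches, and the median was 6. The main retained intron of Rsrp1, intron 3, matched at 8 positions, where 8.61% of those introns had 8 or 9 matches, and is shown at both ends (chr4:134925430-134925449 and chr4:134926715-134926737, plus strand, with the first and last 2 intron bases in capitals).
Rsrp1 intron 3 5' end: gagGTaagtgccttcaggaa
Rsrp1 intron 3 3' end: aaaattctcttcctctttAGcat

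The 6 libraries held 9.15 to 11.3 Gb of bases counted by the quantifier. By library this was 9.41, 9.47 and 9.15 Gb in chloride 1, 2 and 3 and 9.33, 11.3 and 11.1 Gb in propionate 1, 4 and 5. Chloride 3 and propionate 1 had coverage on 71418 and 71165 models and the other 4 on 81155 to 82347, so these 2 libraries stand apart in the number of models with coverage, and the part of this in the members' values was not tested. Of the glioma and neural progenitor markers, 6 of 8 were at 1 TPM or more, with sums of 3358 to 3812 TPM in chloride and 3674 to 4013 in propionate, while Gfap stood at 0.933 TPM and Prom1 at 0.012. Microglial and macrophage markers (2 of 6 at 1 TPM or more) summed to 4.72 to 6.33 and 5.14 to 6.39 TPM with Ptprc at 0.001, endothelial markers to at most 0.319 with Kdr at 0, and erythroid markers to at most 1.77 with Hbb-bs at 0. The neuronal list summed to 78.0 to 78.9 and 73.9 to 89.8 TPM, nearly all from Tubb3, with Rbfox3 and Snap25 at 0. The fibroblast and pericyte list (3 of 4) summed to 92.6 to 105.9 and 82.1 to 105.7 TPM, mostly Col1a1, with Dcn at 0.019.

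By gene total, the summed level of all models of a gene, the members fell into 3 tiers. Tra2b (109 ± 7.47 TPM in chloride, SD, n = 3), Tra2a (103 ± 5.71) and Rsrp1 (93.4 ± 3.88) led, then came Clk4 (67.8 ± 5.07), Clk1 (67.0 ± 5.67) and Luc7l3 (60.4 ± 1.495), and Clk3 (15.1 ± 2.001) and Clk2 (13.5 ± 2.56) were lowest. Neighbours in that order lay within 1 SD of each other for Tra2b and Tra2a, for Clk4 and Clk1, and for Clk3 and Clk2. In bulk RNA a lower level cannot be told apart from fewer cells that express the gene.

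Rsrp1 had the widest gap between the groups among the 8 genes by log2 difference. Its total was 91.3, 97.8 and 91.0 TPM in chloride 1, 2 and 3 and 77.6, 73.3 and 75.6 TPM in propionate 1, 4 and 5, a log2(TPM + 1) difference of -0.30 (SE 0.06). Every propionate library lay below every chloride library, by more than the spread within either group.

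Luc7l3 stood at 61.5, 61.0 and 58.7 TPM in chloride and 47.3, 56.9 and 52.4 TPM in propionate (log2 difference -0.21, SE 0.08). The groups did not overlap, and the lowest level was that of propionate 1.

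Among the kinases, Clk2 and Clk3 also had groups that did not overlap, at low levels. Clk2 stood at 11.7, 12.4 and 16.4 TPM in chloride and 10.6, 11.4 and 11.4 in propionate (log2 difference -0.24, SE 0.13). Clk3 stood at 14.03, 13.9 and 17.4 TPM in chloride and 13.5, 12.9 and 11.5 in propionate (-0.24, SE 0.11). In both genes chloride 3 was the high library, and without it the log2 difference of Clk2 was -0.10 and that of Clk3 -0.14 (-0.07 for Clk2 without propionate 1 as well). Clk1 stood at 60.7, 68.8 and 71.6 TPM against 49.6, 66.5 and 61.7 (-0.18, SE 0.12). The Clk1 difference was -0.06 without propionate 1 and -0.01 without chloride 3 and propionate 1. Clk4 stood at 62.0, 71.5 and 70.0 against 60.4, 64.9 and 59.5 (-0.14, SE 0.07). For Clk1 and Clk4, near neighbours in sequence, the groups overlapped.

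The Tra2 genes had overlapping groups. Tra2a stood at 109, 98.0 and 102 TPM in chloride and 91.9, 104 and 97.8 in propionate (log2 difference -0.07, SE 0.07). Tra2b stood at 117, 102 and 107 TPM against 108, 108 and 112 (0.01, SE 0.06).

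**Figure D1:**
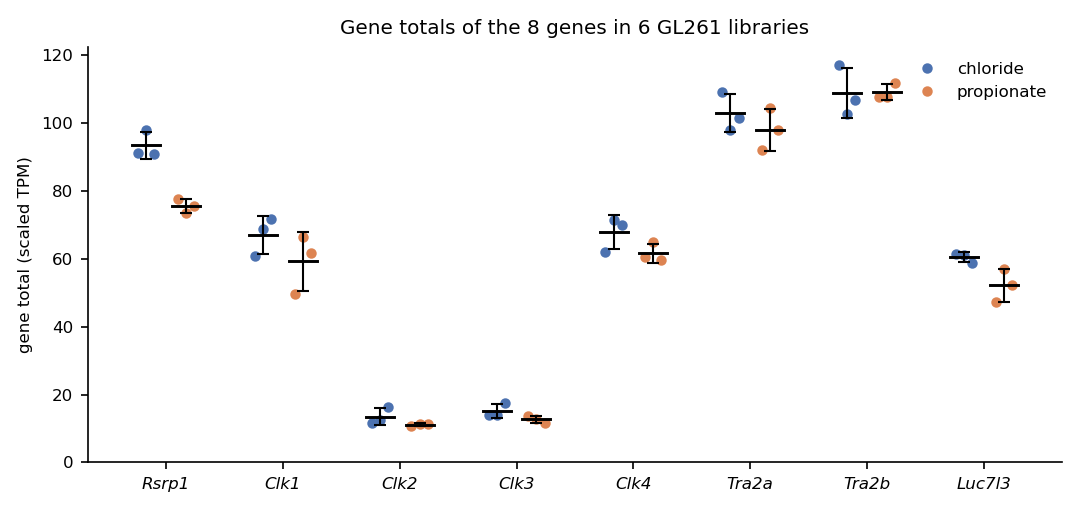
Gene totals in scaled TPM (vertical axis) of the 8 genes, 1 point per library, with the mean (bar) and SD (whiskers) of 3 chloride (blue) and 3 propionate (orange) libraries. The 3 propionate points lie below the 3 chloride points for Rsrp1, Clk2, Clk3 and Luc7l3, and the groups overlap for the other 4 genes.

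Read against all genes, 4 of 8 members had totals lower in propionate without overlap, where 6.44% of the genes tested did, and 7 of 8 were lower by sign, where 48.0% were. Their median log2 difference was -0.20 beside 0.01 over all genes. Of the 8, 0 passed an adjusted p of 0.05 by limma, with 1 gene of 15509 (0.00645%) passing in all, 4 without propionate 1, and 796 (5.13%) under an unadjusted p of 0.05. These shares stand beside the members' counts as background only, because the members were chosen on this contrast.

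Each gene's models were sorted into coding models (reference models typed protein_coding), intron-retaining models (reference models typed retained_intron, and assembled models with an exon that holds a whole intron of a coding model) and the rest. A reference model typed retained_intron need not hold a whole intron of a coding model. Clk1-202, Clk3-208, Clk4-206, Clk4-207, Tra2a-203 and Tra2b-203 have that type and hold 0. Clk1-203, typed processed_transcript, holds 1 and was counted with the rest. Intron-retaining models were lower in propionate without overlap for 5 of 8 members (Rsrp1, Clk1, Clk2, Clk4 and Tra2b), where 20.8% of the 4720 genes with enough of both classes were. Coding models were so for 1 of 8, Luc7l3, where 2.90% of those genes were. As above, nothing is read from these counts, since the members were chosen on this contrast.

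In Rsrp1 most of the level was in intron-retaining models, and the gap between the groups was there too. They stood at 58.2, 59.2 and 55.7 TPM in chloride and 42.9, 39.9 and 40.9 in propionate, 0.714-fold, with no overlap. The single coding model, Rsrp1-201, stood at 11.1, 14.5 and 10.7 TPM against 13.2, 11.1 and 12.2, and these overlapped. The intron-retaining share of the total was 63.8, 60.5 and 61.3% in chloride and 55.2, 54.4 and 54.1% in propionate. Of the 2 models that make the class, Rsrp1-204, which holds intron 3, took 29.6 to 54.5 TPM in chloride and 6.68, 31.6 and 30.6 in propionate. The assembled one, which holds 2 introns, took 4.78 to 26.1 TPM and 36.2, 8.34 and 10.3. The 2 models traded places in propionate 1, and within each group their sum varied less than either of them.

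Coverage along the gene had the same order, but it rests on the same model estimates and is no separate measure. It also lacks the scaling between libraries that the TPM had. On TPM without that scaling the log2 difference of the Rsrp1 total was -0.40. Coverage per Gb counted on exons 1 and 2 of Rsrp1 was 11.2 and 14.8 in the chloride mean and 10.3 and 12.9 in the propionate mean, with overlap. On exon 3 it was 53.9, 57.1 and 57.6 in chloride and 45.7, 41.4 and 41.8 in propionate, and exons 4 and 5 also had no overlap (means 69.0 against 53.3 and 45.9 against 35.5). Intron 3, 1302 bases between exons 3 and 4, was assigned coverage almost like that of an exon. The quantifier gives a mean for each exon of a model, so a held intron takes the mean of the longer exon that holds it. That mean includes the flanking exon bases and is not read depth over the intron.

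**Figure D2:**
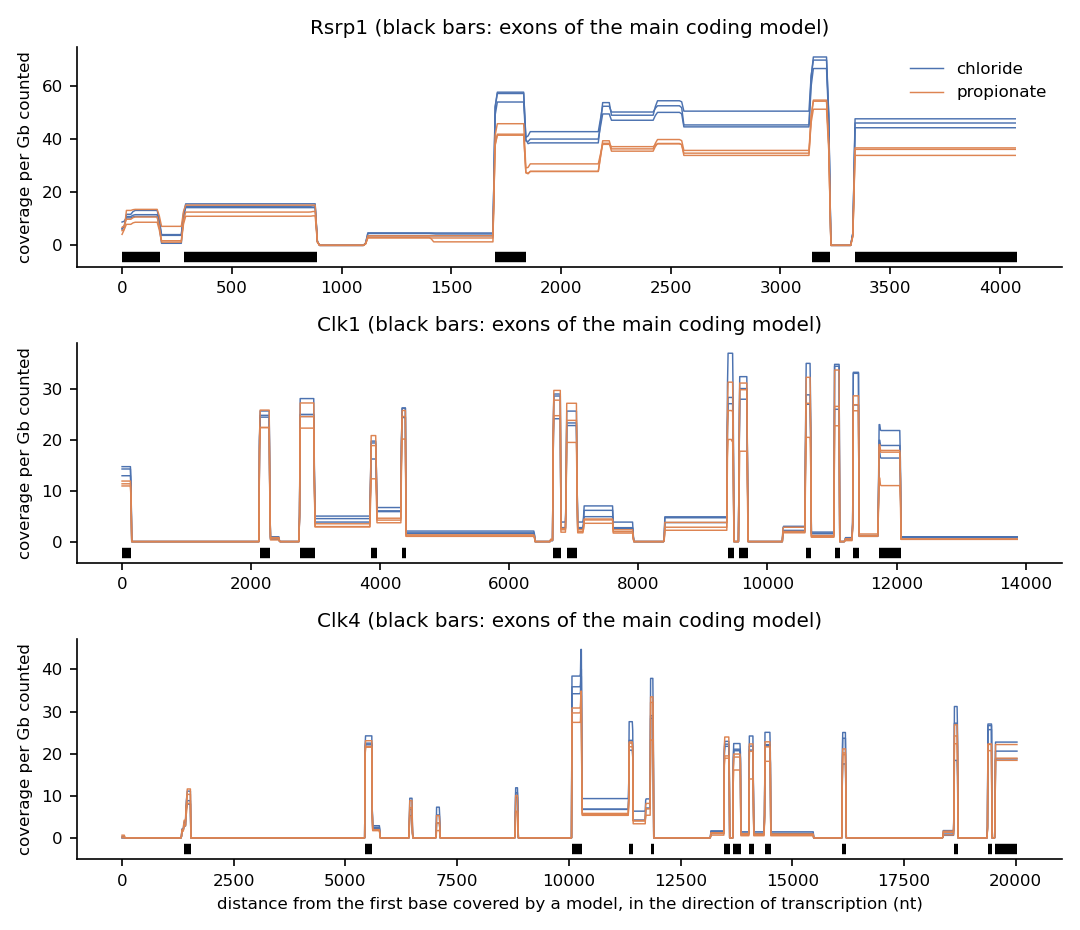
Coverage that the quantifier assigned to models, per Gb counted (vertical axis), along Rsrp1, Clk1 and Clk4 by distance from the first modelled base in the direction of transcription, 1 line per library (chloride blue, propionate orange), with the exons of the main coding model as black bars. In Rsrp1 the lines part from exon 3 on, intron 3 included, where chloride stands above propionate, while exons 1 and 2 overlap (means 14.8 and 12.9 on exon 2).

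Clk1 split its level between coding, skipped and intron-retaining models. The coding model Clk1-201 stood at 19.2, 20.4 and 17.2 TPM in chloride and 16.5, 23.9 and 23.6 in propionate. Intron-retaining models stood at 17.8, 19.6 and 21.6 TPM in chloride and 13.8, 15.1 and 14.5 in propionate, 0.734-fold with no overlap. Their share of the total was 29.3, 28.5 and 30.2% against 27.8, 22.7 and 23.5%, and the coding share was 31.6, 29.6 and 24.1% against 33.3, 36.0 and 38.3%. Both shares had no overlap between groups. Models typed nonsense_mediated_decay, mostly Clk1-210, which skips exon 4, took 18.2, 22.7 and 26.5 TPM and 14.8, 21.8 and 18.6 TPM, with overlap.

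Clk4, the nearest relative of Clk1 here, had the same order. Intron-retaining models stood at 16.6, 18.8 and 20.5 TPM in chloride and 14.01, 14.7 and 14.3 in propionate, 0.769-fold with no overlap, a share of 26.7, 26.3 and 29.4% against 23.2, 22.7 and 24.0%. Much of this class holds no whole intron of a coding model. Clk4-213, which holds 5, stood at 5.01, 5.06 and 7.48 TPM against 3.83, 4.71 and 5.06 and overlapped. Clk4-206, which holds 0, stood at 4.00, 3.65 and 4.58 TPM against 2.85, 3.17 and 3.12, without overlap. Coding models stood at 14.5, 19.4 and 13.9 TPM against 28.6, 21.5 and 17.7 and overlapped, but their share, 23.4, 27.2 and 19.9% against 47.3, 33.2 and 29.8%, did not. The coding model with exon 4 and the most exons, Clk4-201, stood at 6.55, 8.83 and 6.86 TPM against 13.1, 7.24 and 6.85 and overlapped. Clk4-203, a coding model that lacks exon 4, stood at 5.37, 6.99 and 4.67 TPM against 8.68, 11.5 and 10.1, without overlap. Propionate 1 was the high library for coding models as a class. In that library the assembled model MSTRG.3211.8 stood at 0.01 TPM, where the other 5 libraries had 9.34 to 12.1. With reference models alone the log2 difference of the Clk4 total was 0.06, of the other sign.

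Clk4 also carried an exon of 59 bases that its main coding model lacks, inside Gm25082, an annotated RNA of 1 exon. It was in 3 of 4 assembled models and in 3 reference models, all of these typed nonsense_mediated_decay. Models with it made up 55.7, 51.0 and 49.8% of those with or without it in chloride and 25.1, 48.4 and 49.9% in propionate. Its coverage was 37.8, 31.9 and 38.6% of the exons on both sides against 24.9, 38.1 and 23.8%. Both measures overlapped, with propionate 1 low by models and propionate 1 and 5 low by coverage. Reads of Gm25082 itself cannot be told apart from it here.

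Clk2 and Clk3 were low and less even. Intron-retaining models of Clk2 stood at 7.98, 8.305 and 10.9 TPM against 4.34, 6.49 and 7.87, without overlap, and its coding models at 3.34, 3.22 and 4.19 against 1.401, 4.27 and 2.07. An assembled model of 20 exons that runs from Clk2 through the next gene, Scamp3, took 2.46 to 5.70 TPM of these. Without it, an alternative chosen after the data were seen, the log2 difference of the Clk2 total was -0.32, but the groups overlapped. The totals were then 7.90, 8.78 and 11.2 TPM in chloride and 8.18, 7.89 and 5.68 in propionate. The lack of overlap in the Clk2 total thus rests on that model. Intron-retaining models of Clk3 stood at 6.89, 6.50 and 8.705 TPM against 5.15, 6.64 and 6.08, and its coding models at 6.84, 7.38 and 8.71 against 8.38, 6.17 and 5.22. Both classes overlapped in Clk3.

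Intron-retaining models of Tra2b stood at 12.1, 15.1 and 15.4 TPM in chloride and 8.34, 10.4 and 11.9 in propionate, without overlap, but they held only 7.76 to 14.7% of the total. Those of Tra2a stood at 9.99, 16.8 and 15.4 TPM against 8.99, 8.62 and 10.9 and overlapped through chloride 1. Luc7l3 was nearly all coding, 95.1 to 96.9% in the 6 libraries. Its coding models stood at 59.6, 58.0 and 56.8 TPM in chloride and 45.5, 54.3 and 50.7 in propionate, without overlap, and its intron-retaining models at 1.01 to 2.12 TPM. The highest coding model, Luc7l3-202, itself holds 5 introns of other coding models. It stood at 22.5, 21.2 and 23.5 TPM against 12.0, 20.6 and 20.2, without overlap. Luc7l3-209, which holds 0, also had no overlap, while Luc7l3-203 and Luc7l3-201 overlapped.

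**Figure D3:**
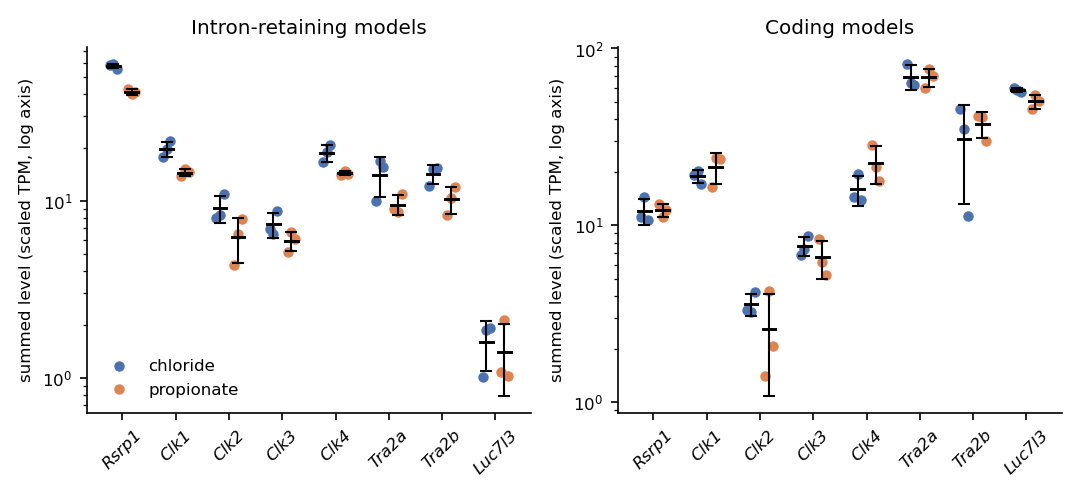
Summed scaled TPM (log axis) of intron-retaining (left) and coding models (right) of each gene, 1 point per library, with mean and SD of 3 chloride (blue) and 3 propionate (orange) libraries. For Rsrp1 the intron-retaining points are 55.7 to 59.2 against 39.9 to 42.9, while its coding points overlap.

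A lower intron-retaining level in propionate was not confined to these genes. The ratio of intron-retaining to coding TPM (log2, with 0.5 TPM added to both) could be fitted for 4720 genes, all 8 members among them, and its median difference between the groups was -0.28 over all of them. It was lower in propionate by sign for 75.4% and without overlap for 16.3%, and higher without overlap for 1.42%. Intron-retaining models made up 3.93, 3.84 and 4.49% of all TPM in chloride and 3.50, 3.31 and 3.33% in propionate. The part of this library-wide shift in the members' values was not tested.

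Against it, the members' ratio was lower by sign in 7 of 8 and without overlap in 3 of 8, with a median difference of -0.50. Clk4 had -0.84 (SE 0.29), Clk1 -0.58 (SE 0.24) and Rsrp1 -0.50 (SE 0.21), each without overlap. Without chloride 3 and propionate 1 that of Clk4 was -0.49. Tra2b had -0.95 (SE 0.61), but -0.30 without chloride 3, -1.44 without chloride 1 and -0.09 without chloride 3 and propionate 1. Its log2 ratio in chloride 3, 0.43, stood far from the -1.85 and -1.20 of chloride 1 and 2, in the library where its main coding model Tra2b-204 is listed at 0. Tra2a had -0.50 (SE 0.35), which was -0.85 without chloride 1 and -0.31 without chloride 2. Clk3 had -0.06 (SE 0.31), Clk2 -0.02 (SE 0.36) and Luc7l3 0.06 (SE 0.31). In these 5 genes the groups overlapped. By limma 0 of the 8 and 0 of 4720 genes (0%) passed an adjusted p of 0.05, with 385 (8.16%) under an unadjusted p of 0.05, and 1 passed without chloride 2.

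**Figure D4:**
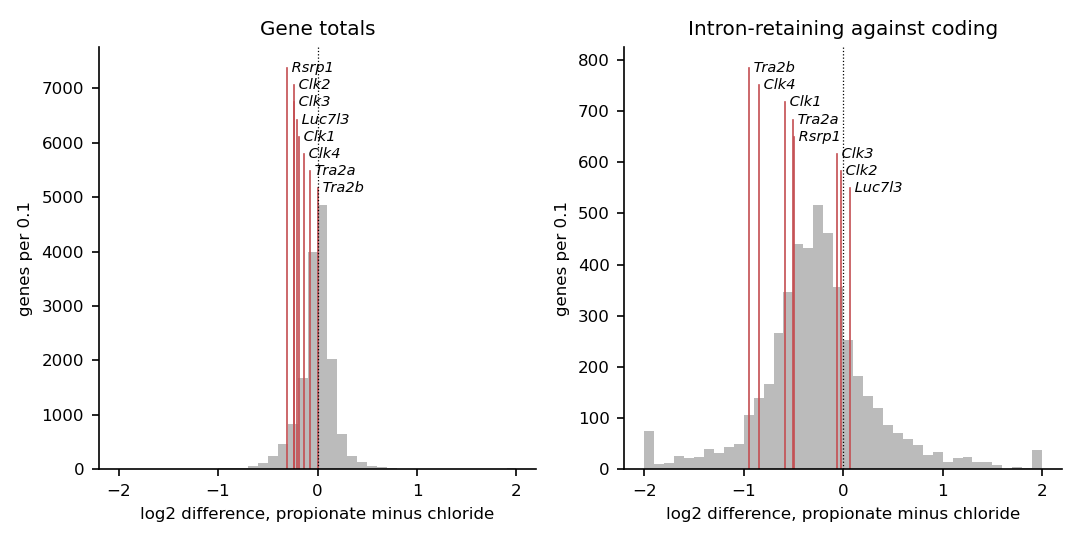
Log2 difference, propionate minus chloride, of gene totals (left, 15509 genes) and of the intron-retaining to coding ratio (right, 4720 genes) in bins of 0.1 (grey, end bins hold all values beyond), with the 8 members as red lines. The left histogram is centred near 0, with Rsrp1 at -0.30, while the right one is centred near -0.28 and most members lie within its body.

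Introns were also measured without sorting models into classes, as coverage of the intron in percent of the mean of both flanking exons, a measure chosen after the data were seen. The coverage is what the quantifier assigned to models, so it rests on the same estimates as the class sums. A held intron takes the mean of the whole model exon that holds it, so the value is no direct reading of the intron. The measure could be taken for introns of which every base lay in a model of the gene and whose flanks had a coverage of at least 10. This left 24 introns in the 8 genes and 8104 in 4086 genes in all. The members' introns had a median of 14.3% beside 5.71% overall. Of the 24, 22 were lower in propionate by sign and 8 without overlap, beside 73.9% and 16.2% of the 8104, and 0 were higher without overlap, beside 1.62%. The median over all introns was 5.29, 5.74 and 6.31% in chloride and 4.36, 4.73 and 4.57% in propionate.

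Intron 3 of Rsrp1 was covered at 73.8, 72.3 and 74.7% of its flanks in chloride and 71.0, 71.6 and 68.5% in propionate. Its level against the flanks thus lay at the 94.4th percentile of all introns. The group means differed by 3.24 percentage points, and the groups did not overlap, with 72.3% in chloride and 71.6% in propionate the nearest values. Exons 3 to 5, on either side, were lower in propionate as well. Intron 1, the other Rsrp1 intron measured, was uneven, at 28.4, 6.13 and 30.7% in chloride and 51.7, 12.7 and 15.3% in propionate. Its groups overlapped, and its mean was higher in propionate.

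The introns on both sides of CLK exon 4 were held in all 4 kinases. In Clk1, intron 3 (871 bases) stood at 20.2, 17.4 and 22.6% against 16.6, 14.6 and 13.6%, and intron 4 (387 bases) at 27.4, 25.8 and 31.5% against 22.8, 19.7 and 19.4%, both without overlap. In Clk4, intron 3 (1055 bases) stood at 24.3, 22.9 and 27.9% against 21.2, 20.6 and 22.4%, without overlap. Its intron 4 (391 bases) stood at 19.7, 19.4 and 21.8% against 16.7, 17.5 and 19.9%, where propionate 5 reached into the chloride range. Introns 3 and 4 of Clk2 (13.97 to 16.05% on average) and Clk3 (30.0 and 14.1%) overlapped between groups. Held introns at this place were thus common to all 4 kinases. In Clk1 and Clk4 they lie next to an exon of the same length and nearly the same letters.

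Of the other introns with no overlap, Clk2 intron 11 stood at 15.4, 9.97 and 11.3% against 5.14, 4.52 and 4.18%, and Clk1 intron 10 at 6.21, 5.35 and 4.85% against 3.95, 3.599 and 3.81%. Tra2b introns 5 and 6 had 2.53 and 3.32% in chloride and 1.74 and 2.36% in propionate on average. These 2 of the 8 introns had the same coverage in each library and are not separate measurements. Introns 10 and 11 of Luc7l3 stood at 65.2 and 101% of their flanks over the 6 libraries with overlapping groups. Luc7l3 was 96.2% coding in either group, and its coding models Luc7l3-202 and Luc7l3-201 themselves hold whole introns of other coding models.

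**Figure D5:**
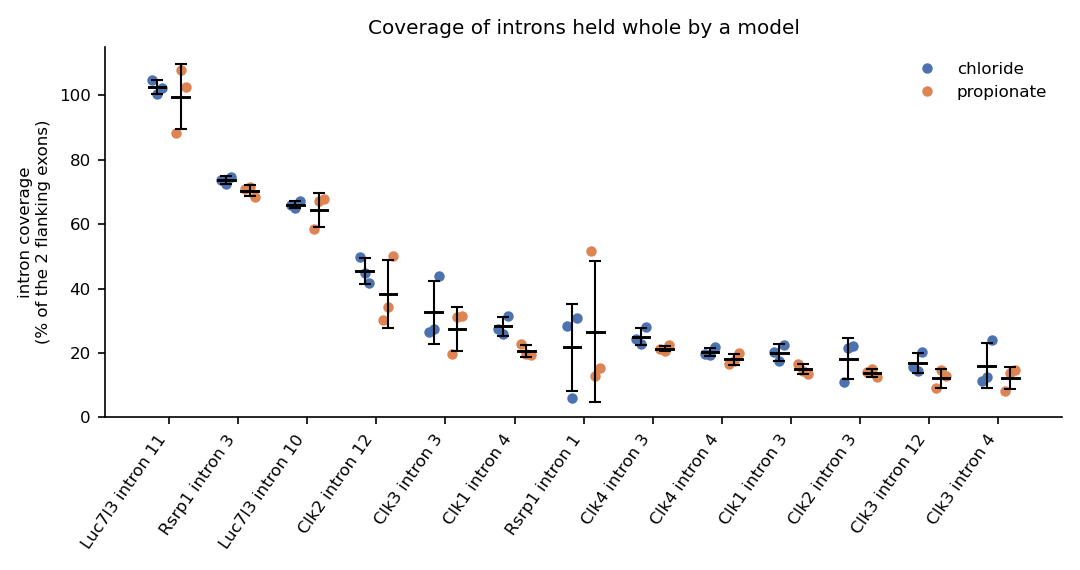
Coverage of 13 introns of the members in percent of the mean of their flanking exons (vertical axis), 1 point per library, with mean and SD of 3 chloride (blue) and 3 propionate (orange) libraries, for introns with a mean of at least 14%. Rsrp1 intron 3 lies near 72%, and introns 3 and 4 of Clk1 lie lower in propionate without overlap.

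Exon 4 of the CLK genes was measured by coverage and by models. The coverage includes models that hold the introns on either side whole, such as Clk1-212 and Clk4-213. The measure by models leaves these out. In Clk1 its coverage was 80.0, 76.2 and 59.7% of exons 3 and 5 in chloride and 58.1, 78.6 and 76.8% in propionate, and models with it made up 51.3, 47.3 and 39.4% against 50.8, 52.3 and 55.5% of those with or without it. Low coverage marked chloride 3 and propionate 1, the libraries that stand apart, and both measures overlapped. In Clk4 coverage was 65.4, 71.6 and 71.7% against 73.4, 71.9 and 81.1%, higher in propionate without overlap. By models, however, Clk4 exon 4 was at 62.1, 51.9 and 50.3% against 50.2, 53.5 and 56.4%, which overlapped. In Clk3 models with exon 4 held 95.1 to 100% of the TPM of models with or without it, and its coverage was 78.1 to 94.8% of the flanks. In Clk2 these were 18.8 to 74.7% and 51.1 to 79.99%, so the 2 measures differ.

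By the quantifier's estimates, part of the level of both Tra2 genes lay in models with the poison exon or another form of it. Models with a second exon that starts at the poison exon's first base, 6 in each gene, made up 16.7, 18.7 and 25.5% of Tra2a in chloride and 25.2, 19.0 and 17.9% in propionate, counted over models with or without it. Of the 6 in Tra2a, 5 were assembled, and in 1 of these the exon ends before the stop codon shown. Tra2a-202, the reference model with it, was at 4.83 TPM in propionate 1 and at 0 in the other 5 libraries. In Tra2b, models with the exon made up 59.3, 66.0 and 100% in chloride and 61.8, 60.4 and 74.6% in propionate. The 100% in chloride 3 is where the skipping model Tra2b-204 is listed at 0. By coverage the exon stood at 22.7, 21.2 and 35.0% of its flanks against 19.5, 25.7 and 20.3% in Tra2a, and at 44.5, 70.8 and 77.8% against 45.7, 53.7 and 44.7% in Tra2b. The groups overlapped by both measures in both genes. The Tra2b exon lies in intron 1, every base of which lay in some model. Its coverage may therefore include models other than those that splice the exon in. Tra2b-206, which the annotation types nonsense_mediated_decay, took 24.6 TPM in propionate 1 and 0.225 to 0.318 in the other 5 libraries. Of the assembled models with a longer form of the exon, MSTRG.8433.3 was listed at 0 in propionate 1 and at 5.88 to 37.7 TPM elsewhere.

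Single models of the members numbered 99, of which 79 were reference models and 20 were assembled, and 61 had a mean of at least 1 TPM. Of the 61, 47 were lower in propionate by sign (52.4% of the models tested were) and 14 without overlap (7.71% of 35755 models tested were), 1 was higher (4.54%), and 0 passed an adjusted p of 0.05 by limma (0.0364% did, 13 models, with 1640 or 4.59% under an unadjusted p of 0.05). That count of 13 was 6, 8, 31, 5 and 2 without chloride 2, chloride 3, propionate 1, propionate 4 and propionate 5. The 1 higher model was Clk4-203, which is coding and lacks exon 4, at 5.37, 6.99 and 4.67 TPM in chloride and 8.68, 11.5 and 10.1 in propionate. Among the 14 lower ones was Tra2b-208, a retained intron model, at 4.47, 5.29 and 4.88 against 2.90, 4.00 and 3.87 TPM.

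The partners of these genes in splicing, taken from lists written with earlier results of these data known, had 0 genes past an adjusted p of 0.05 in either direction over 78 genes tested. Of 20 kinases, phosphatases, cyclophilins and other partners of SR proteins, 12 were lower by sign and 4 without overlap (median log2 difference -0.04), with the smallest p for Pnisr (32.0 ± 2.53 against 25.9 ± 1.75 TPM) and Nktr (34.0 ± 2.25 against 27.8 ± 2.096). Of 10 SR proteins tested 5 were lower (median 0.00), with Srsf11 at 48.2 ± 2.15 against 39.1 ± 2.57 TPM and Srsf10, a splicing repressor when dephosphorylated, at 92.7 ± 9.35 against 81.8 ± 8.49. Of 21 other arginine- and serine-rich splicing proteins 20 were lower by sign and 4 without overlap (median -0.11), and the 1 higher had no overlap. Among the lower were Thrap3 at 64.3 ± 3.69 against 53.8 ± 1.63 TPM and Arglu1 at 38.4 ± 0.630 against 33.8 ± 1.99. Over all genes the median was 0.01, with 48.0% lower by sign, 6.44% lower without overlap and 5.29% higher without overlap.

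Of 10 genes of the U1 snRNP and its partners 7 were lower by sign (median -0.10). Without overlap 3 were lower and 1 was higher, beside the shares over all genes given above. Tia1, which helps U1 snRNP at weak sites, stood at 30.8 ± 1.94 against 25.4 ± 0.0663 TPM. Snrpa, a U1 subunit, stood at 20.7 ± 1.46 against 23.4 ± 1.14. Of 10 genes of nonsense-mediated decay 5 were lower (median -0.02), with Upf3b at 11.0 ± 0.342 against 9.69 ± 1.16 TPM and Smg1, the kinase of Upf1, at 36.8 ± 1.12 against 34.1 ± 1.55. Of 7 genes of the exon junction complex 0 were lower (median 0.06), with Eif4a3 at 233 ± 10.3 against 249 ± 9.87 TPM and Casc3 at 14.3 ± 0.807 against 15.0 ± 1.21. For these 12 genes the limma adjusted p ran from 0.913 to 0.937.

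Over the 6 libraries, the coding genes whose log2(TPM + 1) was most like that of Rsrp1 were Fchsd1 (Pearson r 0.98), Rnf167 and Ilkap (0.95 each), Kidins220 (0.95) and Slc15a2 (0.94), among 7464 genes that averaged 10 TPM or more. Those most like the mean of Clk1 and Clk4 were Trip12 and Dtwd1 (0.98 each), Agk, Taf8 and Nhlrc2 (0.97 each). All points share their 6 libraries, and 32 and 58 of the 7464 genes had an r over 0.9. Trip12, for example, stood at 99.9, 116 and 116 TPM in chloride and 93.9, 111 and 101 in propionate, with chloride 1 and propionate 1 low, as in Clk1.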

How the data were processed

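Per the labels' protocols, a column kit gave total RNA, from which stranded libraries were made. Without giving roles, the submitters' processing notes list HISAT2, StringTie, fastp, bcl2fastq and build mm10. Per the file headers, StringTie 2.1.1 estimated coverage, FPKM and TPM for 157296 fixed models in each library. The deposited TPM is a relative level made by the authors, with no counts, so depth was read from coverage over FPKM, as Gb counted. Values are therefore divided between overlapping models by the quantifier, and a model listed at 0 can be a failed estimate. The strand setting is not given in the sources.

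Models were named and typed by GENCODE M21 (GRCm38, the same build as mm10). Assembled models went to the gene on their strand that shares most of their exons. Of the members' 79 reference models, 79 had the annotation's introns and 30 its exact ends, and sequences come from the annotation's transcripts. TPM were summed per gene and scaled by the median ratio over genes to the geometric mean of the 6 libraries. Limma 3.58.1 in R 4.3.3 (lmFit, eBayes with trend, two-sided, Benjamini-Hochberg over all genes or models, threshold 0.05) was run on log2(TPM + 1) of genes and models averaging 1 TPM or more and 200 bases or longer. It was also run on the log2 ratio of intron-retaining to coding TPM, for genes with at least 0.5 and 1 TPM of each, and was tested on simulated data.

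The members and lists were chosen with earlier results of these data known. The text names all 8 members, and of each list the 2 genes with the smallest p where none passed. A marker list is not reported here.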

Additional observations from a re-analysis of the deposited data

How the results depend on the processing

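No paired analysis was possible because the groups share only replicate number 1. Under 12 to 14 other settings per value, the signs of the total stayed the same for Rsrp1, Clk1, Clk2, Clk3, Tra2a and Luc7l3, and those of the intron-retaining to coding ratio for Rsrp1, Clk1, Clk4, Tra2a and Tra2b. The log2 difference of the Rsrp1 total ran from -0.48 (reference models alone) to -0.27. That of Tra2b changed sign under 4 settings (-0.09 to 0.23) and that of Clk4 under 1. The ratio of Clk2 changed sign under 3 settings (-0.43 to 0.30, the first without the model that also covers Scamp3), that of Clk3 under 2 (-0.22 to 0.23) and that of Luc7l3 under 2 (-0.17 to 0.24). The Clk4 ratio was -0.49 without chloride 3 and propionate 1, and that of Rsrp1 -1.04 with reference models alone.

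Genes past the threshold numbered 1, but 0 with no filter on low values, 2 with at least 5 TPM, 6 without chloride 3 and propionate 1, and 1 to 4 with single libraries left out (4 without propionate replicate 1). For the ratio the count was 0, and 0 to 1 with single libraries left out. Models numbered 13, but 1 with no filter, 5 with at least 5 TPM, 0 without chloride 3 and propionate 1, and 2 to 31 with single libraries left out. The causes were not tested. With no counts in the files, the error of reading depth could not be set beside single values, and 3 libraries a group limit every comparison.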
